A study of Mus musculus with 8 samples.

Results

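The cyclins and cyclin-dependent kinases (CDKs) of meiotic division were followed by RNA sequencing in mouse spermatocytes with and without Cnot4. The set held 10 genes, taken from the deposited values by symbol: the A cyclins Ccna1 and Ccna2, the B cyclins Ccnb1, Ccnb2 and Ccnb3, the E cyclins Ccne1 and Ccne2, the kinases Cdk1 and Cdk2, and the phosphatase gene Cdc25c. They were 10 of 23235 gene symbols. All 10 were among the 15899 genes with a level above 1 FPKM (a level scaled to transcript length and library size) in at least 1 library.

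Spermatocytes came from male C57BL/6 mice aged 6 weeks per the methods, and were either WT or Cnot4-KO. Per the methods, KO males were Cnot4 fl/fl;Stra8-Cre, so that Cre acted in germ cells around meiotic entry and removed exon 2 of Cnot4. Cnot4 encodes a RING-domain subunit of the CCR4-NOT complex, the main mRNA deadenylase of the cell. Cells were sorted by DNA staining into leptotene and zygotene (LZ) and pachytene and diplotene (PD) fractions, which gave 4 groups: WT LZ, KO LZ, WT PD and KO PD, each with 2 libraries. The methods call the 2 libraries of a group biological replicates, and the labels name no animals, so p-values measure the spread between libraries. The methods describe cDNA amplified from sorted cells, whereas the labels describe libraries made from total RNA, and it was not determined which was used.

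A CDK is active only when bound to a cyclin. In the mitotic cycle, E cyclins with CDK2 act at the entry into S phase, cyclin A2 acts in S and G2 phase, and B cyclins with CDK1 drive the entry into M phase. Male germ cells add cyclin A1, which is found almost only in testis and is needed for spermatocytes to pass from diplotene into the first meiotic division. Spermatocytes stay in prophase for many days before CDK1 with a B cyclin is activated by phosphatases of the CDC25 family.

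The targeted gene was measured first. Cnot4, on mouse chromosome 6 (chr6:34972066-35083737, mm9, minus strand), read 36.03 and 34.9 FPKM for WT LZ, 43.2 and 34.6 for KO LZ, 76.6 and 73.1 for WT PD, then 65.9 and 53.5 for KO PD. The genotypes overlapped at LZ, and at PD both KO libraries lay below both WT libraries. The difference at PD was -0.33 ± 0.20 (SE) on the log2(FPKM + 1) scale and was not called (limma, Benjamini-Hochberg adjusted p = 0.192), but was -1.75 and called after rescaling to an equal median. These values do not test the genotype, because there is 1 value per gene and the deletion covers 1 exon.

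The cell type markers of the 8 libraries differed with genotype at PD. Markers of PD spermatocytes (9 genes) summed to 277 and 387 FPKM for WT LZ, 290.5 and 130.5 for KO LZ, 12903 and 12061 for WT PD, then 6122 and 2397 for KO PD. All 9 were called higher at PD than LZ in WT and 7 of 9 in KO, beside 21.6% and 27.8% of all genes. Between genotypes at PD, 3 of 9 were called lower in KO, beside 11.5% of all genes. The other 6 were not called, among them Ldhc, which made up most of the sum at PD (limma, Benjamini-Hochberg adjusted p = 0.0568). Markers of LZ spermatocytes (8 of 9 genes in the files) summed to 2635, 2830, 5125 and 2943 FPKM for WT LZ and KO LZ, 1466 and 1545 for WT PD, then 1325 and 754 for KO PD. Of these 8 genes, 3 were called higher and 3 lower in KO PD than in WT PD, beside 41.6% and 11.5% of all genes. The median of the 8 was -0.06, against 0.66 over all genes. The 3 called lower, Sycp3 (-1.17), Hormad1 (-1.39) and Spo11 (-1.63), were not called lower from LZ to PD in WT. In that stage comparison 5 of the 8 were called lower and 1 higher (Spo11), beside 36.2% and 21.6% of all genes. The 3 called higher, Stra8, Dmc1 and Prdm9, were called lower from LZ to PD in WT (-5.20, -5.51 and -4.01), and Prdm9 at PD was 1.31 as deposited and -0.073 after quantile normalization. Of these, Stra8, which marks the entry into meiosis, was at 8.70 and 6.47 FPKM in WT PD against 228 and 149 in KO PD.

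Marker genes of other cell types were higher in summed level in KO PD. The study reports that sorted populations were checked by SYCP3 and pH2AX immunofluorescence, that shares of cell types by flow cytometry were alike between genotypes, and that spermatogenesis in KO is blocked as early as metaphase I. The values below are RNA levels and were not compared with those measures. Leydig cell markers (6 genes) summed to 16.8, 9.89, 10.8 and 19.0 FPKM in the LZ libraries, 115 and 7.07 in WT PD, then 10021 and 22204 in KO PD, with all 6 called higher in KO PD. The most abundant of them was Insl3, a hormone gene of Leydig cells, at 9669 and 21607.5 FPKM in KO PD, and none of the 6 was at 0 there, while Cyp17a1, Cyp11a1 and Lhcgr were at 0 in WT PD replicate 2. Round spermatid markers (7 genes, led in KO PD by Prm1) summed to 1834, 1523, 4034 and 709 FPKM in the LZ libraries, 562 and 410.4 in WT PD, then 15890.3 and 7169.8 in KO PD, and 6 of 7 were called higher in KO PD. Spermatogonia markers (8 genes, led by Uchl1 in KO PD and Id4 in WT PD) summed to 683, 651, 439.6 and 619.7 FPKM at LZ, 68.1 and 83.3 in WT PD, then 347 and 429 in KO PD. Nanos2, a defining gene of undifferentiated spermatogonia, was at 0 in WT PD and in KO PD replicate 2. Of the 8 spermatogonia markers, 6 were called higher in KO PD, and 4 after quantile normalization. The counts of these lists stand beside 41.6% of all genes called higher in KO PD, or 2835 of 15899 after quantile normalization. At PD, Id4 was lower in KO (-1.03), as was Acr (-1.21) among the spermatid markers, neither of them called.

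Sums of somatic cell markers were also higher in KO PD, though each was led by few genes, and 41.6% of all genes tested were called higher there. Peritubular myoid markers (5 genes) summed to 1.88 to 5.15 FPKM at LZ, 3.89 and 2.39 in WT PD, then 63.9 and 293 in KO PD, led there by Acta2. Sertoli cell markers (7 of 8 genes in the files) summed to 66.5, 59.7, 6.75 and 11.1 FPKM at LZ, 8.96 and 16.7 in WT PD, then 100.3 and 206 in KO PD. Clu made up most of this sum, and Amh was at 0 in 7 of the 8 libraries. Of the 6 Sertoli markers tested, 3 were called higher in KO PD, and 1 after quantile normalization, where their median was -0.28. Macrophage markers (6 genes, led by Lyz2 at PD) summed to 35.7, 0.915, 12.1 and 2.51 FPKM at LZ, 2.75 and 1.60 in WT PD, then 24.3 and 108 in KO PD. Endothelial markers (5 genes) summed to at most 0.454 FPKM at LZ, 0.343 and 0.249 in WT PD, then 1.88 and 7.51 in KO PD. Of the markers tested, 5 of 5 myoid, 3 of 6 macrophage and 1 of 2 endothelial genes were called higher in KO PD, against 5, 0 and 0 after quantile normalization. No list was tested against the share of all genes. The part of these cell types in the results on cyclins and CDKs at LZ and PD was not tested. In such bulk samples, fewer cells of a type and less RNA per cell cannot be told apart.

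**Figure D1:**
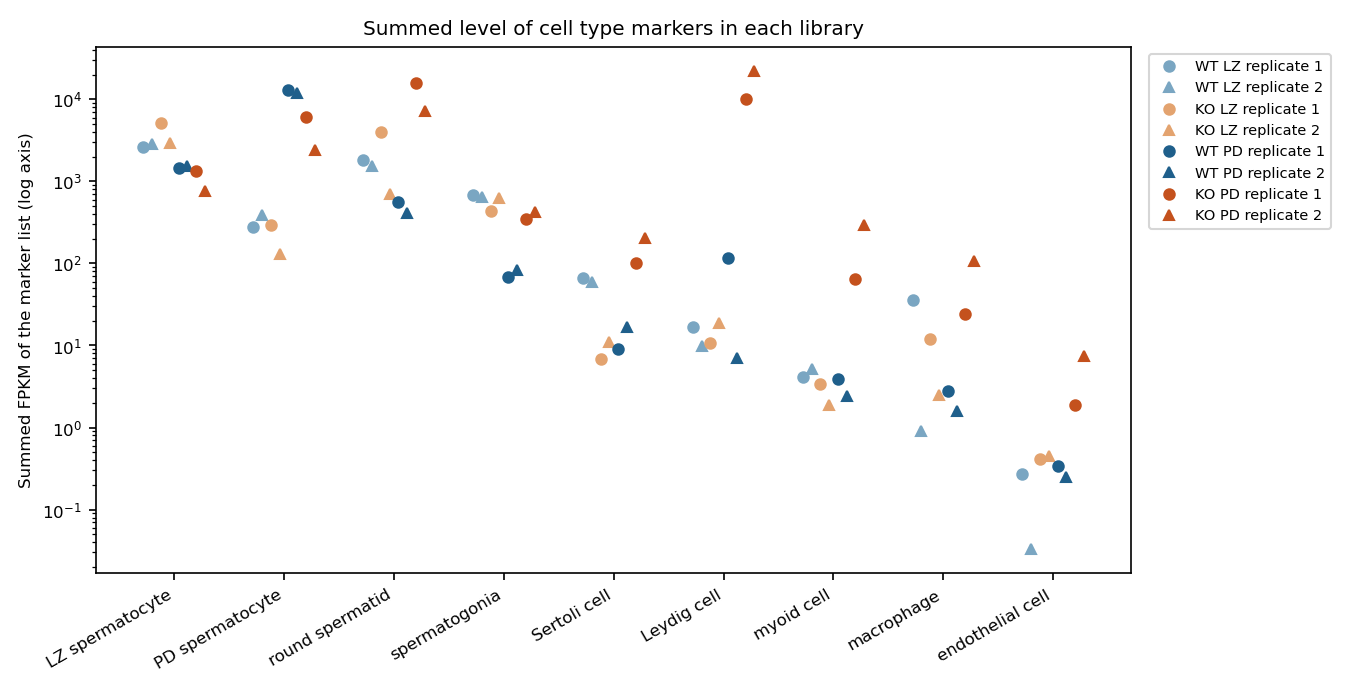
Summed FPKM (log axis) of the genes of each cell type marker list in each of the 8 libraries, coloured by group, with circles for replicate 1 and triangles for replicate 2. The KO PD libraries lie above the WT PD libraries for round spermatid, spermatogonia and somatic cell markers, with Leydig markers at 10021 and 22204 FPKM, and below them for PD spermatocyte markers.

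The relative depth was estimated from the values alone. From genes with few reads, where values step by the worth of a read, the estimate relative to WT LZ replicate 1 was 1.05 for WT LZ replicate 2, 0.933 and 1.06 for KO LZ, 1.22 and 1.34 for WT PD, then 1.00 and 0.821 for KO PD. The read totals that the study lists rank the libraries in another order, so the depth of each library is uncertain. The number of symbols above 1 FPKM was 10103 and 10076 in WT PD but 13887 and 14249 in KO PD. The median of all genes tested shifted by -0.32 (WT PD against WT LZ), 0.19 (KO PD against KO LZ), 0 (KO against WT at LZ) and 0.66 (KO against WT at PD) on the log2(FPKM + 1) scale. Differences at PD are therefore also given relative to this median, and after quantile normalization and after rescaling every library to an equal median.

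Across the set, each of the A, B and E cyclins was called between stages in WT as deposited and neither kinase was. From LZ to PD in WT, 2 of the 10 genes were called higher (Ccna1 and Ccnb2) and 6 lower (Ccna2, Ccnb1, Ccnb3, Ccne1, Ccne2 and Cdc25c), where called means an adjusted p under 0.05 in limma. Of all genes tested, 21.6% were called higher and 36.2% lower in that comparison. In KO, 1 gene was called higher (Ccna1) and 7 lower from LZ to PD, beside 27.8% and 18.2% of all genes. The median over the 10 genes was -1.44 in WT and -1.07 in KO, against -0.32 and 0.19 over all genes. In WT the split was 1 higher and 5 lower after quantile normalization, where Ccnb2 and Ccne2 were not called, and 4 and 5 after rescaling. In KO it was 1 and 7 after quantile normalization, 1 and 8 after rescaling, and 1 and 4 in a fit of the KO libraries alone.

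Between genotypes, none of the 10 genes was called at LZ by limma, and 0 had an unadjusted p under 0.05. At LZ only 0.0692% of all genes were called higher in KO and 0.0252% lower (15 genes), and 1013 had an unadjusted p under 0.05. Where both KO libraries lay above or below both WT libraries, an exact test of 2 against 2 libraries cannot go below p = 0.333. Such separation is given below as a description and does not by itself show a difference between genotypes. At PD, 3 of the 10 genes were called higher in KO (Ccna2, Ccnb1 and Cdc25c) and 3 lower (Ccnb2, Cdk1 and Cdk2), beside 41.6% of all genes called higher and 11.5% lower. After rescaling the 10 genes split into 0 higher and 6 lower at PD, after quantile normalization into 2 and 3, and in a fit of the PD libraries alone into 3 and 0. The median over the 10 genes was -0.05, below the 0.66 of all genes. The genotype effect was called as different between the stages (interaction) for 4 genes, higher at PD for Ccna2, Ccnb1 and Cdc25c and lower for Cdk1, beside 26.0% and 3.97% of all genes, and the split was 1 and 2 after quantile normalization and 0 and 5 after rescaling. The stage comparisons and the genotype comparisons share libraries (WT PD, for example, enters both), so they are not independent.

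The split of calls over all genes depended on the scaling. At PD it was 6619 higher and 1830 lower in KO as deposited, 2835 and 4078 after quantile normalization, and 3704 and 6378 after rescaling. For the change from LZ to PD in WT it was 3436 higher and 5754 lower, against 4120 and 4815 after quantile normalization and 5174 and 4265 after rescaling. In KO it was 4423 and 2893, against 2974 and 4986 after quantile normalization and 3326 and 5183 after rescaling. For the interaction it was 4139 and 631, against 1548 and 1966 and then 2167 and 5146.

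**Figure D2:**
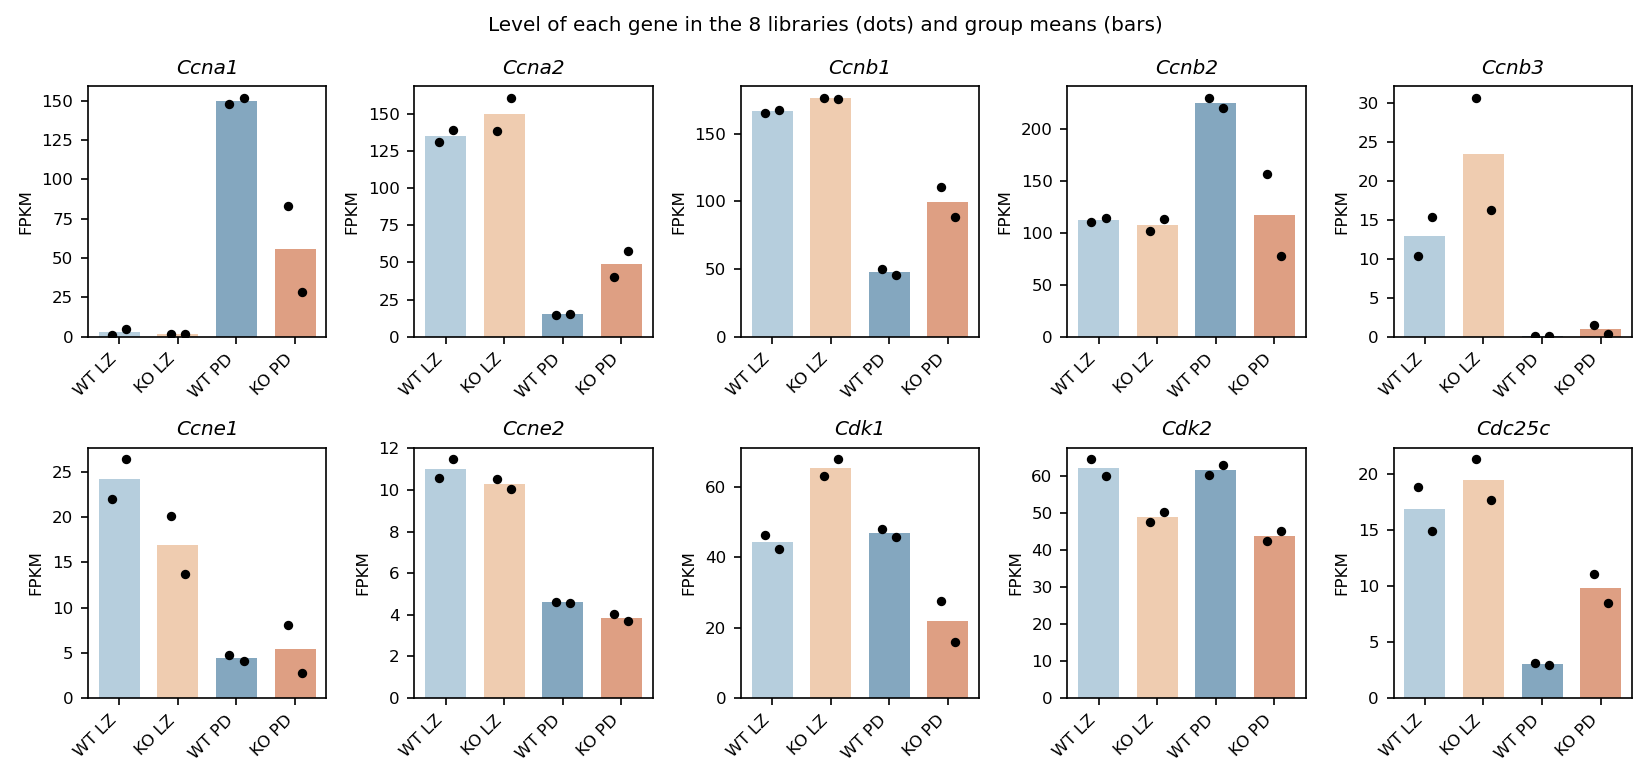
FPKM of the 10 genes in each of the 8 libraries (dots) with the mean of the 2 libraries of each group (bars), each panel on its own linear axis from 0. Ccna1 and Ccnb2 are high in WT PD and lower in both KO PD libraries, whereas Ccna2, Ccnb1 and Cdc25c are low in WT PD and higher in both KO PD libraries.

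The upstream sequences of 4 genes are shown because the results turn on them: Ccna1 and Ccnb2 were called higher at PD in WT, Ccnb1 moved the opposite way, and Cdk1 was lower in KO PD. They come from the RefSeq promoter table (GRCm38.p6) and were located in mm9 by exact match, each at 1 place. Bases inside an exon of GENCODE vM1 are left out. Capitals mark matches, on either strand, to 4 kinds of motif known from promoters of cell cycle genes. The CHR motif is TTTGAA and the CCAAT box is CCAAT. The MYB motif was searched as CAACTG, in another form as CAACGG, in a further form as TAACTG and in its last form as TAACGG. The E2F motif was searched as TTCCCGC, in another form as TTCGCGC and in its last form as TTGGCGC. The Ccna1 stretch is chr3:54858978-54859227, the Ccnb1 stretch chr13:101556526-101556691, the Ccnb2 stretch chr9:70269362-70269611 and the Cdk1 stretch chr10:68815687-68815910, all on the minus strand of mm9 and written 5′ to 3′ along the gene.
Ccna1: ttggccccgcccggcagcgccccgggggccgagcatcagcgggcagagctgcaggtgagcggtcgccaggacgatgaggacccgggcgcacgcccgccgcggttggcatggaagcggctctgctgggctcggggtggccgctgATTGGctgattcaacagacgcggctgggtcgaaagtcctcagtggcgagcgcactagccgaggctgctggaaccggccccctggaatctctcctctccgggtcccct
Ccnb1: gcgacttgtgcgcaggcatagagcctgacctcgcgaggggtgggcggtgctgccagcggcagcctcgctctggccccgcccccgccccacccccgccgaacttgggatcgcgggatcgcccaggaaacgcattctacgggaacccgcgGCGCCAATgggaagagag
Ccnb2: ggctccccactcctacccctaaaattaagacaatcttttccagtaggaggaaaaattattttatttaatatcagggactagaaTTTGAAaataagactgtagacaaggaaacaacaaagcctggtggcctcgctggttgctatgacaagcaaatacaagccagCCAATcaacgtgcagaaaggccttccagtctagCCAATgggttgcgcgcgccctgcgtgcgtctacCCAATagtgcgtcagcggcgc
Cdk1: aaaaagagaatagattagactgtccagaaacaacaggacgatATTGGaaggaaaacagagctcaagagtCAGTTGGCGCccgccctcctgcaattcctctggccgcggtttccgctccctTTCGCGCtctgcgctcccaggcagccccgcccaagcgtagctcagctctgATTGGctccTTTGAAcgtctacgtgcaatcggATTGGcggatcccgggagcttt

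Over the 250 bases before the start, Ccna1 held 1 CCAAT box and no match to the other motifs. Ccnb2 held 3 CCAAT boxes, 87, 54 and 21 bases before the start, and 1 CHR motif 167 bases before it. Ccnb1 held 2 CCAAT boxes, of which that 99 bases before the start overlaps its E2F motif, and that 67 bases before it lies in the exon left out above. Cdk1 held 3 CCAAT boxes, 2 CHR motifs, 2 E2F motifs and 1 MYB motif, and its MYB motif overlaps an E2F motif. The CHR motif 15 bases before the Cdk1 start lies in the exon left out above.

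Of the other promoters searched, Ccnb3 held 2 MYB motifs and 1 E2F motif, Cdk2 held 1 CCAAT box and 2 E2F motifs, and Ccne1 held no match. In all, 5 of the 7 promoters held a CCAAT box, 2 a CHR motif, 2 a MYB motif and 4 an E2F motif. Among 32851 promoters of the same length the shares were 33.8% for the CCAAT box, 16.0% for the CHR motif, 23.7% for MYB motifs and 6.69% for E2F motifs. Ccna2, Ccne2 and Cdc25c were not analysed here. A match describes the letters alone and says nothing of binding.

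Ccna1 encodes cyclin A1, the germ cell cyclin needed for the first meiotic division. The gene (chr3:54849391-54858977) read 0.914 and 4.86 FPKM for WT LZ, 1.47 and 1.62 for KO LZ, 148 and 152 for WT PD, then 83.0 and 28.2 for KO PD. It was near the bottom of the set in all LZ libraries and far above them in all PD libraries. Both KO PD libraries lay below both WT PD libraries, and they differed from each other by 2.95-fold. From LZ to PD, Ccna1 rose by 5.49 ± 0.61 (SE) on the log2(FPKM + 1) scale in WT (limma, Benjamini-Hochberg adjusted p = 0.000231) and by 4.28 ± 0.61 in KO (adjusted p = 0.00177).

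The mean of Ccna1 at PD was 149.9 ± 2.73 FPKM (SD, n = 2) in WT and 55.6 ± 38.8 in KO, a ratio of 0.371. On the log2(FPKM + 1) scale the difference was -1.61 ± 0.61 (SE), or -2.27 relative to the median of all genes. It was not called in limma (Benjamini-Hochberg adjusted p = 0.0595), which does not show that the levels were alike. It was called when KO PD replicate 1 was left out (-2.37, adjusted p = 0.0346 in limma), when either WT LZ library was left out (adjusted p = 0.0410), and after rescaling (-3.02, adjusted p = 0.00397). Without KO PD replicate 2 the difference was -0.84, and over the other settings the adjusted p ran from 0.00397 to 0.166. The interaction was not called (-1.21 ± 0.87, adjusted p = 0.309 in limma) but was after rescaling (-2.66). With a library left out it ran from -2.02 (without WT LZ replicate 2) to -0.40 (without WT LZ replicate 1).

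Ccna2 encodes cyclin A2, the A cyclin of somatic and mitotic germ cells. The gene (chr3:36463788-36471072) read 131 and 139 FPKM for WT LZ, 139 and 161 for KO LZ, 14.3 and 15.5 for WT PD, then 40.4 and 57.6 for KO PD. All LZ libraries were high, both WT PD libraries were low, and both KO PD libraries lay between them without overlap. Across the stages, Ccna2 fell by 3.10 ± 0.22 (SE) on the log2(FPKM + 1) scale in WT (limma, Benjamini-Hochberg adjusted p = 3.93e-05) and by 1.61 ± 0.22 in KO (adjusted p = 0.00144).

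The Ccna2 level in KO PD was 3.28 times that of WT PD. The difference was 1.63 ± 0.22 (SE) on the log2(FPKM + 1) scale (limma, Benjamini-Hochberg adjusted p = 0.00116), or 0.97 relative to the median of all genes. It was called with any library left out, was 1.32 after quantile normalization (adjusted p = 0.0158 in limma), and was 0.25 and not called after rescaling (adjusted p = 0.353). The difference between its genotype effects at PD and LZ was 1.49 ± 0.31 (adjusted p = 0.0133 in limma). That call ended without either WT PD library or without KO LZ replicate 1 (adjusted p from 0.0526 to 0.0654), and after quantile normalization (1.20) and rescaling (0.06).

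The A cyclins thus exchanged places between the stages. Ccna1 made up 0.693% and 3.38% of the summed A cyclin FPKM in WT LZ, 1.05% and 0.997% in KO LZ, 91.2% and 90.7% in WT PD, then 67.3% and 32.9% in KO PD. In WT PD Ccna1 was the more abundant A cyclin in both libraries. In KO PD it was so in replicate 1 but not in replicate 2, where Ccna2 was higher. The summed level of both was 162 and 167 FPKM in WT PD and 123 and 85.7 in KO PD.

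Ccnb1 encodes cyclin B1, the main partner of CDK1 at the entry into M phase. The gene (chr13:101548605-101556525) read 165 and 167 FPKM for WT LZ, 176.3 and 175.6 for KO LZ, 49.8 and 45.4 for WT PD, then 110.7 and 88.4 for KO PD. It was the most abundant of the 10 genes in every LZ library, lowest in WT PD, and between these in KO PD without overlap. Across the stages, Ccnb1 fell by 1.79 ± 0.18 (SE) on the log2(FPKM + 1) scale in WT (limma, Benjamini-Hochberg adjusted p = 0.000161) and by 0.82 ± 0.18 in KO (adjusted p = 0.00966). The fall in KO was not called in a fit of the KO libraries alone (adjusted p = 0.0650 in limma).

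At PD, Ccnb1 was 2.09 times as high in KO as in WT. The difference was 1.04 ± 0.18 (SE) on the log2(FPKM + 1) scale (limma, Benjamini-Hochberg adjusted p = 0.00353), which is 0.38 above the median of all genes. It was called with any library left out and after quantile normalization (1.11), but rescaling turned its sign (-0.38, adjusted p = 0.128 in limma). The genotype effect at PD exceeded that at LZ by 0.96 ± 0.26 (adjusted p = 0.0312 in limma). This was not called when any 1 library of WT LZ, KO LZ or WT PD was left out (adjusted p from 0.0791 to 0.123) or without the variance trend (0.0530), and its sign turned after rescaling (-0.50).

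Ccnb2 encodes cyclin B2, the B cyclin that mice can do without. The gene (chr9:70255496-70269361) read 110.3 and 114 FPKM for WT LZ, 102 and 113 for KO LZ, 229.97 and 220.4 for WT PD, then 157 and 77.7 for KO PD. Both WT PD libraries were the highest of the 8, and KO PD replicate 2 was the lowest, below every LZ library. From LZ to PD in WT, Ccnb2 rose by 1.00 ± 0.31 (SE) on the log2(FPKM + 1) scale (limma, Benjamini-Hochberg adjusted p = 0.0267). That call ended when any 1 library of WT LZ, KO LZ or WT PD was left out (adjusted p from 0.0539 to 0.115 in limma), without the filter on low values (0.0777), and after quantile normalization (0.49, adjusted p = 0.0748).

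In KO, the Ccnb2 libraries at PD lay on either side of those at LZ. The stage difference was 0.04 ± 0.31 (SE) on the log2(FPKM + 1) scale (limma, Benjamini-Hochberg adjusted p = 0.930). It was -0.46 without KO PD replicate 1 (adjusted p = 0.0270 in limma) and 0.54 without KO PD replicate 2 (adjusted p = 0.0168), and its sign was negative after quantile normalization (-0.11) and rescaling (-0.55). Against WT at PD, Ccnb2 was at 0.521 times the level, a difference of -1.02 ± 0.31 (adjusted p = 0.0285 in limma) or -1.68 relative to the median of all genes. It was -1.52 without KO PD replicate 1 and -0.52 without replicate 2. It lost its call when any 1 library of another group was left out (adjusted p from 0.0554 to 0.125), without the filter (0.0792) and in a fit of the PD libraries alone (0.118).

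The interaction of Ccnb2 was -0.96 ± 0.44 (SE) on the log2(FPKM + 1) scale and was not called in limma (Benjamini-Hochberg adjusted p = 0.135). It was called after rescaling (-2.43, adjusted p = 0.00691 in limma). It was -1.46 and called without KO PD replicate 1, but -0.46 and not called without KO PD replicate 2. The ratio of Ccnb2 to Ccnb1 was 0.667 and 0.680 for WT LZ, 0.579 and 0.645 for KO LZ, 4.62 and 4.85 for WT PD, then 1.42 and 0.879 for KO PD. Ccnb2 thus led the B cyclins in WT PD and in KO PD replicate 1, and Ccnb1 led in the other 5 libraries.

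Ccnb3 encodes cyclin B3, an X-linked cyclin known from early meiotic prophase in testis and from the first division of oocytes. The gene (chrX:6556778-6618745) read 10.3 and 15.4 FPKM for WT LZ, 30.6 and 16.3 for KO LZ, 0.0589 and 0.135 for WT PD, then 1.498 and 0.348 for KO PD. It was the lowest of the set in all 4 PD libraries, and both KO libraries lay above both WT libraries at each stage. Between LZ and PD, Ccnb3 fell by 3.63 ± 0.42 (SE) on the log2(FPKM + 1) scale in WT (limma, Benjamini-Hochberg adjusted p = 0.000272) and by 3.67 ± 0.42 in KO (adjusted p = 0.000799). A pseudocount of 1 understates changes at such low levels.

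The genotype difference of Ccnb3 was 0.78 ± 0.42 (SE) at LZ on the log2(FPKM + 1) scale and 0.74 ± 0.42 at PD. Neither was called in limma (Benjamini-Hochberg adjusted p = 0.859 at LZ and 0.168 at PD). The value at LZ was 0.34 without KO LZ replicate 1 and 1.21 without replicate 2. At PD it was 0.30 without KO PD replicate 1 and 1.19 without replicate 2. With a pseudocount of 0.1 the difference at PD was 2.13 and was called (adjusted p = 0.0331 in limma), and after quantile normalization it was -0.11 and not called. Relative to the median of all genes it was 0.08 at PD, and after rescaling it was 0.41 and not called.

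Ccne1 and Ccne2 encode cyclin E1 and cyclin E2, the partners of CDK2 at the G1 to S transition. Ccne1 (chr7:38883003-38892553) read 22.0 and 26.4 FPKM for WT LZ, 20.1 and 13.7 for KO LZ, 4.75 and 4.15 for WT PD, then 8.06 and 2.80 for KO PD. Ccne2 (chr4:11118498-11131926, plus strand) read 10.6 and 11.5 FPKM for WT LZ, 10.5 and 10.05 for KO LZ, 4.64 and 4.58 for WT PD, then 4.03 and 3.69 for KO PD. For both genes all PD libraries lay below all LZ libraries. The KO PD libraries of Ccne1 fell on either side of WT PD, and those of Ccne2 lay just below it.

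Between LZ and PD, Ccne1 fell by 2.21 ± 0.41 (SE) on the log2(FPKM + 1) scale in WT (limma, Benjamini-Hochberg adjusted p = 0.00279) and by 1.59 ± 0.41 in KO (adjusted p = 0.0180). The fall in KO was -0.96 without KO PD replicate 2 and was called, and lost its call without either KO LZ library (adjusted p = 0.118 and 0.0505 in limma), without the filter (0.0627) and in a fit of the KO libraries alone (0.0930). Ccne2 fell by 1.10 ± 0.21 in WT (limma, adjusted p = 0.00320) and by 1.22 ± 0.21 in KO (adjusted p = 0.00370). The fall of Ccne2 in WT was not called after quantile normalization (-0.50) or rescaling (-0.33).

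Neither E cyclin was called between genotypes at PD in limma. The difference was 0.11 ± 0.41 (SE) on the log2(FPKM + 1) scale for Ccne1 (Benjamini-Hochberg adjusted p = 0.837) and -0.21 ± 0.21 for Ccne2 (adjusted p = 0.422), which is -0.55 and -0.87 relative to the median of all genes. For Ccne1 the sign turned without KO PD replicate 1 (-0.52), after quantile normalization (-1.17) and after rescaling (-1.07), and the last was called (adjusted p = 0.0430 in limma). Ccne2 was called lower in KO PD after quantile normalization (-1.54) and after rescaling (-1.37). Its interaction, not called as deposited (-0.12), was called in both (-1.47 and -1.32).

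Cdk1 encodes the kinase that drives the entry into M phase and is needed for the first meiotic division. The gene (chr10:68799383-68815686) read 46.4 and 42.4 FPKM for WT LZ, 62.9 and 67.8 for KO LZ, 48.0 and 45.8 for WT PD, then 27.7 and 15.9 for KO PD. The WT libraries of both stages overlapped, both KO LZ libraries were the highest of the 8, and both KO PD libraries were the lowest. From LZ to PD, Cdk1 was at 0.08 ± 0.26 (SE) on the log2(FPKM + 1) scale in WT and was not called (limma, Benjamini-Hochberg adjusted p = 0.846), with -0.07 after quantile normalization and 0.95 after rescaling, the last called (adjusted p = 0.0198). In KO it fell by 1.59 ± 0.26 (limma, adjusted p = 0.00299), a call kept with any library left out and in every other setting tried.

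Between genotypes, Cdk1 was at 0.55 ± 0.26 (SE) on the log2(FPKM + 1) scale at LZ, with both KO libraries above both WT libraries, and this was not called (limma, Benjamini-Hochberg adjusted p = 0.833). At PD it was at 0.465 times the WT level, a difference of -1.12 ± 0.26 (limma, adjusted p = 0.0109) or -1.78 relative to the median of all genes. The difference was -1.33 after quantile normalization and -2.51 after rescaling, both called. It was -1.50 without KO PD replicate 1 and -0.74 without replicate 2, both called, and was not called without either WT PD library (adjusted p = 0.0699 and 0.0619 in limma) or in a fit of the PD libraries alone (0.0595).

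Cdk1 was the gene of the set whose genotype effect at PD lay below that at LZ by the test. The interaction was -1.67 ± 0.37 (SE) on the log2(FPKM + 1) scale (limma, Benjamini-Hochberg adjusted p = 0.0168). It was called in all 7 other settings, with the adjusted p between 0.00336 and 0.0469, but not when any 1 library of WT LZ, KO LZ or WT PD was left out (0.0550 to 0.0756).

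Cdk2 encodes the partner of E and A cyclins, which sits at telomeres and recombination sites in prophase spermatocytes and is needed for meiosis. The gene (chr10:128134995-128142107) read 64.6 and 60.0 FPKM for WT LZ, 47.7 and 50.2 for KO LZ, 60.3 and 63.2 for WT PD, then 42.5 and 45.3 for KO PD. The stages overlapped in WT, and at each stage both KO libraries lay below both WT libraries. From LZ to PD, Cdk2 was at -0.01 ± 0.17 (SE) on the log2(FPKM + 1) scale in WT and -0.15 ± 0.17 in KO, neither called in limma (Benjamini-Hochberg adjusted p = 0.984 and 0.476). After rescaling both were called, at 0.86 in WT and -0.73 in KO.

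The genotype difference of Cdk2 was -0.34 ± 0.17 (SE) on the log2(FPKM + 1) scale at LZ, not called (limma, Benjamini-Hochberg adjusted p = 0.842), and -0.48 ± 0.17 at PD (adjusted p = 0.0440), a level of 0.711 times that of WT. Relative to the median of all genes it was -1.15 at PD. The call at PD ended after quantile normalization (-0.44, adjusted p = 0.142 in limma), without the variance trend (0.0793) and in a fit of the PD libraries alone (0.0822). It also ended with the replicate number as a block, and when any 1 library of WT LZ, KO LZ or WT PD was left out. The interaction was -0.14 ± 0.24 and was not called (adjusted p = 0.659 in limma). It was called after rescaling (-1.59).

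Cdc25c encodes a phosphatase that removes inhibitory phosphates from CDK1. The gene read 18.8 and 14.9 FPKM for WT LZ, 21.3 and 17.6 for KO LZ, 3.10 and 2.97 for WT PD, then 11.1 and 8.49 for KO PD. All LZ libraries were above all PD libraries, and both KO PD libraries lay between WT PD and LZ without overlap. Between LZ and PD, Cdc25c fell by 2.14 ± 0.24 (SE) on the log2(FPKM + 1) scale in WT (limma, Benjamini-Hochberg adjusted p = 0.000238) and by 0.93 ± 0.24 in KO (adjusted p = 0.0174). The fall in KO lost its call without KO LZ replicate 1 (adjusted p = 0.0950 in limma) and in a fit of the KO libraries alone (0.0789).

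At PD, Cdc25c was 3.22 times as high in KO as in WT. The difference was 1.41 ± 0.24 (SE) on the log2(FPKM + 1) scale (limma, Benjamini-Hochberg adjusted p = 0.00311), or 0.75 relative to the median of all genes. It was called with any library left out, but was 0.26 after quantile normalization and 0.20 after rescaling and was called in neither (adjusted p = 0.429 and 0.469 in limma). The interaction was 1.21 ± 0.34 (adjusted p = 0.0356 in limma). It was not called when any 1 library of WT LZ, KO LZ or WT PD was left out (0.0513 to 0.129) or after quantile normalization (0.05), and its sign turned after rescaling (-0.03).

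**Figure D3:**
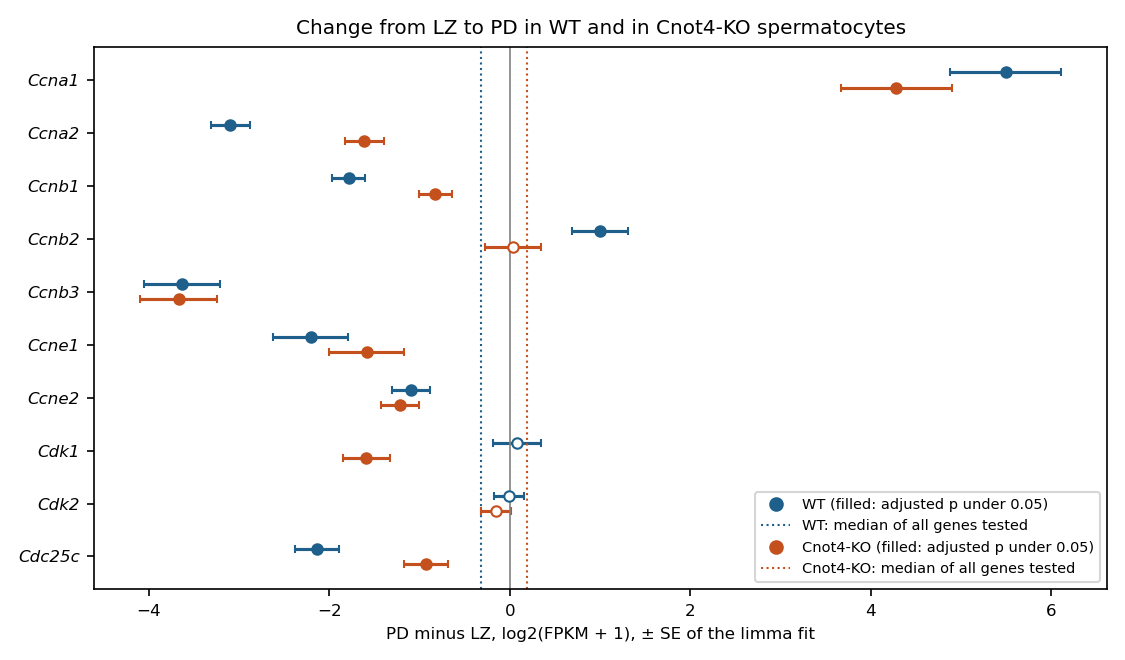
Difference between PD and LZ for the 10 genes in WT and in Cnot4-KO, on the log2(FPKM + 1) scale with the SE of the limma fit, filled where called, with dotted lines at the median of all genes (-0.32 in WT and 0.19 in KO). Ccna1 lies far to the right in both genotypes, Ccna2, Ccnb1 and Cdc25c lie less far to the left in KO, and Cdk1 is at 0.08 in WT and -1.59 in KO.

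**Figure D4:**
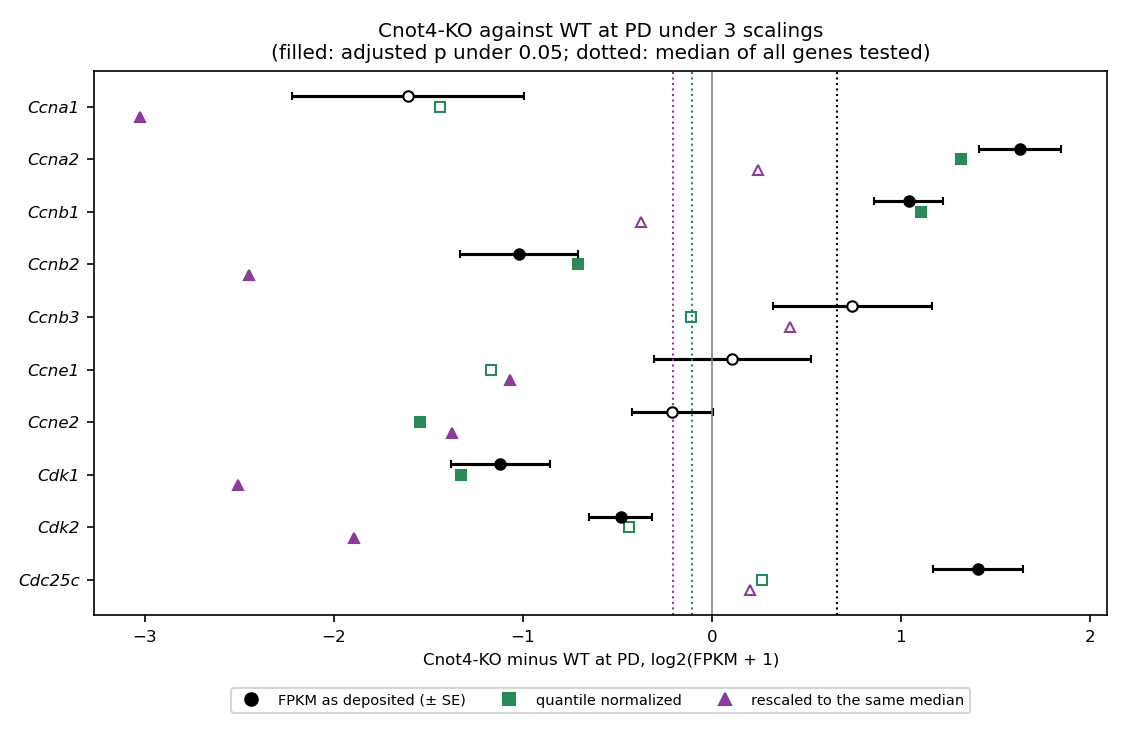
Difference between Cnot4-KO and WT at PD for the 10 genes with the FPKM as deposited (circles, with SE), after quantile normalization (squares) and after rescaling to an equal median (triangles), filled where called, with the median of all genes dotted. Ccna1, Ccnb2, Cdk1, Cdk2 and Ccne2 lie below 0 in all 3, Ccna2 and Cdc25c lie above 0 in all 3, and Ccnb1, Ccnb3 and Ccne1 change sign. The calls of Ccna2 and Ccnb1 end after rescaling, that of Cdk2 after quantile normalization and that of Cdc25c after both.

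The order of levels within a group changed with stage and genotype. In WT LZ the means ran from Ccnb1 (166 FPKM) over Ccna2 (135), Ccnb2 (112), Cdk2 (62.3), Cdk1 (44.4) and Ccne1 (24.2) to Cdc25c (16.9), Ccnb3 (12.8), Ccne2 (11.02) and Ccna1 (2.89). Libraries of Cdc25c and Ccnb3, and of Ccnb3 and Ccne2, overlapped there. KO LZ kept the same first 3 genes, with Cdk1 (65.4) above Cdk2 (48.9) in both libraries, the reverse of WT LZ. In WT PD the order began with Ccnb2 (225 FPKM), Ccna1 (149.9) and Cdk2 (61.7), followed by Ccnb1 (47.6) and Cdk1 (46.9), whose libraries overlapped. In KO PD it began with Ccnb2 (117) and Ccnb1 (99.6), whose libraries overlapped, as did those of Ccna1 (55.6) and Ccna2 (49.0).

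The 7 cyclins together summed to 451 and 478 FPKM for WT LZ, 479.8 and 491 for KO LZ, 452 and 442 for WT PD, then 404 and 259 for KO PD. The sum was thus similar in the first 3 groups while its makeup changed. Ccnb2 and Ccna1 were 50.9% and 32.8% of it in WT PD replicate 1, and 49.9% and 34.4% in replicate 2. In KO PD replicate 1 they were 38.8% and 20.5%, and in replicate 2 they were 30.05% and 10.9%. Ccnb1 and Ccna2 were 11.02% and 3.18% in WT PD replicate 1, 10.3% and 3.51% in replicate 2, 27.4% and 9.99% in KO PD replicate 1, and 34.2% and 22.2% in replicate 2. KO PD replicate 2, which had the higher Leydig marker sum, also had the makeup nearer to that of LZ, and whether the former bears on the latter was not tested.

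**Figure D5:**
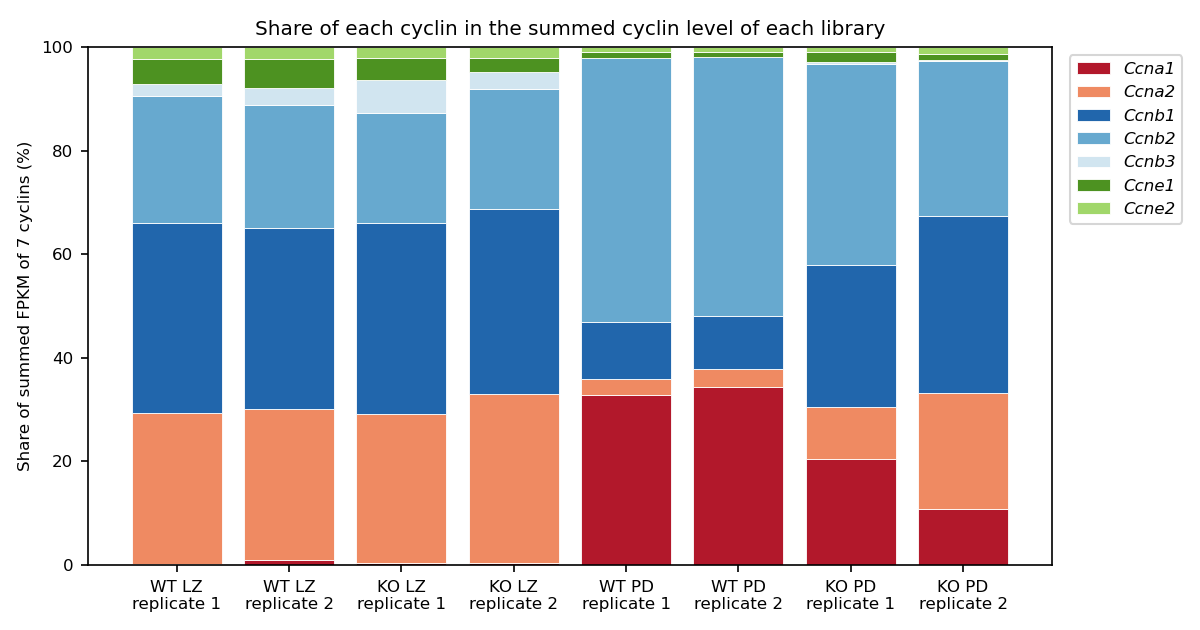
Share of each of the 7 cyclins in their summed FPKM (%), 1 bar per library. Ccna1 and Ccnb2 fill most of the WT PD bars, Ccna2, Ccnb1 and Ccnb2 fill most of the LZ bars, and the KO PD bars lie between, with Ccna1 at 20.5% and 10.9%.

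Other genes of the pathway were counted from lists that partly share genes with the marker lists. The counts stand beside 21.6% of all genes called higher and 36.2% lower from LZ to PD in WT, and 41.6% higher and 11.5% lower in KO at PD, and no list was tested against these shares. Of 14 other cyclins, CDKs and CKS subunits, 2 were called higher and 8 lower from LZ to PD in WT, and at PD 8 were called higher in KO and 3 lower, with a median of 1.90 against 0.66 over all genes (7 and 4 after quantile normalization). Cks2, a small subunit that binds CDK1 and CDK2, was the most abundant at 1989.8 and 2521 FPKM in WT PD and 1054 and 971 in KO PD, a difference of -1.15 (limma, Benjamini-Hochberg adjusted p = 0.00443). Its relative Cks1b was at 10.7 and 14.2 FPKM in WT PD and 67.04 and 60.5 in KO PD. Spdya, the activator of CDK2 at meiotic telomeres, was at 291 and 301 FPKM in WT PD and 98.7 and 54.9 in KO PD, the largest fall among the called genes of the list (-1.99). Ccnd3, a D cyclin, was at 0.480 and 0.132 FPKM in WT PD and 15.3 and 35.4 in KO PD, the largest rise (4.23).

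Of 8 CDK inhibitors, 3 were called higher and 3 lower from LZ to PD in WT, and at PD 4 were called higher in KO and 2 lower, with a median of 0.41 (2 and 2 after quantile normalization). Cdkn3, a phosphatase that acts on CDK2, was at 501 and 516 FPKM in WT PD and 392 and 197 in KO PD, which was not called (-0.87, limma, Benjamini-Hochberg adjusted p = 0.0855). Cdkn2c, an inhibitor of CDK4 and CDK6, was at 158 and 181 FPKM in WT PD and 93.4 and 48.0 in KO PD, the largest fall (-1.32). Cdkn1c, which encodes the inhibitor p57, was at 2.03 and 2.21 FPKM in WT PD and 16.3 and 19.7 in KO PD, the largest rise (2.60).

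A further list held kinases and phosphatases that act on CDK1 or its substrates, with regulators of these enzymes such as Ensa. Of its 15 measured genes (16 listed), 4 were called higher and 8 lower from LZ to PD in WT. At PD 5 were called higher in KO and 4 lower, with a median of -0.22 (2 and 6 after quantile normalization). Ensa, an inhibitor of the phosphatase PP2A during M phase, was at 86.5 and 80.0 FPKM in WT PD and 68.1 and 74.9 in KO PD and was not called. Aurka, the kinase Aurora A, was at 196 and 178 FPKM in WT PD and 90.1 and 38.6 in KO PD, the largest fall (-1.65). Cdc25b, a relative of Cdc25c, was at 0.136 and 0.0415 FPKM in WT PD and 2.47 and 5.23 in KO PD, the largest rise (2.096). Cdc25a was not called (0.38).

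The anaphase-promoting complex (APC/C) targets B cyclins for destruction at the exit from M phase, and the list of it and its regulators included inhibitors. Of these 23 genes, 5 were called higher and 10 lower from LZ to PD in WT. At PD 8 were called higher in KO and 3 lower, with a median of 0.06 (5 and 5 after quantile normalization). The most abundant, Anapc13 and the ubiquitin-conjugating enzyme gene Ube2s, were not called at PD (-0.05 and -0.10). Pttg1, which encodes securin, was at 661 and 622 FPKM in WT PD and 330 and 201 in KO PD, the largest fall (-1.31). Fbxo5, which encodes the APC/C inhibitor EMI1, was at 0.639 and 0.732 FPKM in WT PD and 6.97 and 7.19 in KO PD, the largest rise (2.26).

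Of 8 factors known to be needed for the step from prophase to metaphase I in spermatocytes, 5 were called higher and 2 lower from LZ to PD in WT, and at PD 2 were called higher in KO and 3 lower, with a median of -0.70 (1 and 3 after quantile normalization). Hspa2, a chaperone needed for the assembly of CDK1 with cyclin B1 in spermatocytes, was at 589 and 615 FPKM in WT PD and 411 and 203 in KO PD (-1.06, limma, Benjamini-Hochberg adjusted p = 0.0490). Spo11, which makes meiotic DNA breaks, was at 134 and 147 FPKM in WT PD and 56.6 and 35.2 in KO PD, the largest fall (-1.63). Trip13, a remodeller of HORMA-domain proteins, was at 5.28 and 5.29 FPKM in WT PD and 19.6 and 18.4 in KO PD, the largest rise (1.67). None of these lists had a gene called between genotypes at LZ in limma.

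Of 8 proliferation genes, 0 were called higher and 6 lower from LZ to PD in WT, and at PD 4 were called higher in KO and 2 lower, with a median of 0.52 (2 and 3 after quantile normalization). Pcna, the sliding clamp of DNA replication, was at 367 and 378 FPKM in WT PD and 218 and 126 in KO PD, the largest fall (-1.16). Birc5, which encodes survivin, was at 283 and 263 FPKM in WT PD and 159 and 95.2 in KO PD. Mcm2, a subunit of the replicative helicase, was at 0.526 and 0.815 FPKM in WT PD and 19.4 and 19.3 in KO PD, the largest rise (3.62). Cyclins A2 and B1 are also markers of dividing cells. The spermatogonia marker sum was 683 and 651 FPKM in WT LZ and 439.6 and 619.7 in KO LZ. It was 68.1 and 83.3 in WT PD against 347 and 429 in KO PD. The part of such cells in the levels of Ccna2 and Ccnb1 at LZ and PD, and so in their fall between the stages, was not tested.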

How the data were processed

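Labels assigned the 8 libraries to groups. According to the authors, reads were cut to equal length and aligned to mm9 by TopHat2 2.1.1, and Cufflinks 2.2.1 gave the deposited FPKM. Genes over 1 FPKM in at least 1 library (15899 of 23235) were tested. log2(FPKM + 1) was modelled by group in limma 3.58.1 (R 4.3.3; eBayes with trend), and Benjamini-Hochberg adjustment covered all genes of each of 5 contrasts, with a threshold of 0.05. This scale understates changes of low genes. An exact test of 2 against 2 libraries cannot go below p = 0.333. Read counts were not used here, so counting error is not given. The code was run on simulated data first. Python 3.11.15, numpy 2.4.6, pandas 2.3.3 and matplotlib 3.10.9 made the other tables and the plots. Gene positions come from GENCODE vM1. The 10 genes and all lists were chosen with earlier results of these data known. Each pathway list names its 2 genes of highest mean FPKM and its largest rise and fall at PD among called genes. Emr1 stands for Adgre1. Alternatives were no filter, a mean FPKM of at least 5, a pseudocount of 0.1, quantile normalization, rescaling to the same median, no trend, only the libraries compared, a replicate block, and each library left out.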

Additional observations from a re-analysis of the deposited data

Results flagged for a closer look

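For 4 genes the difference between Cnot4-KO and WT at PD departed from that at LZ in limma's interaction term (Benjamini-Hochberg adjusted p under 0.05, log2(FPKM + 1) scale). The effect at PD minus that at LZ was 1.49 for Ccna2, with both KO libraries above both WT libraries at PD and overlapping genotypes at LZ. It was 0.96 for Ccnb1, with KO above WT in both libraries at each stage. It was -1.67 for Cdk1, with KO above WT in both libraries at LZ and below WT in both at PD. It was 1.21 for Cdc25c, with both KO libraries above both WT libraries at PD and overlapping genotypes at LZ. Of the 10 genes, 3 were thus called higher and 1 lower in the interaction, beside 26.0% and 3.97% of all genes. The split was 1 and 2 after quantile normalization and 0 and 5 after rescaling. Each of these calls also ended in some of the fits with a library left out, as given with each gene.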

How the results depend on the processing

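Of 390 results under settings other than leaving out a library, 344 kept direction and call, 22 lost the call, 11 gained it and 13 turned sign. Of 400 with a library left out, the counts were 339, 44, 5 and 12.

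Rescaling to the same median turned the sign of Ccnb1 at PD (-0.38) and in the interaction (-0.50), Ccnb2 from LZ to PD in KO (-0.55), Ccne1 at PD (-1.07) and in the interaction (-0.60), Cdk2 from LZ to PD in WT (0.86) and Cdc25c in the interaction (-0.032). Quantile normalization turned Ccnb2 from LZ to PD in KO (-0.11), Ccnb3 at PD (-0.11), Ccne1 at PD (-1.17) and in the interaction (-0.62), and Cdk1 from LZ to PD in WT (-0.071). A pseudocount of 0.1 turned Ccnb3 in the interaction (1.31).

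With only the libraries compared, genes called were 3955 from LZ to PD in KO (7316 in the full fit) and 4 between genotypes at LZ (15), and of the 10 genes 5 were called from LZ to PD in KO (8) and 3 between genotypes at PD (6). With no filter 31 genes were called at LZ, with a mean FPKM of at least 5 5219 at PD (8449), and after rescaling 7313 in the interaction (4770).

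With each library left out, genes called ran from 6930 to 10156 (stage in WT), 4644 to 8333 (stage in KO), 9 to 25 (LZ), 4057 to 9956 (PD) and 1656 to 7929 (interaction), and of the 10 genes 7 to 8, 6 to 9, 0 to 0, 3 to 7 and 0 to 5. Values ran from -1.21 to 0.41 for Ccna1 at LZ, -0.46 to 0.54 for Ccnb2 from LZ to PD in KO, -0.13 to 0.016 for Ccnb2 at LZ, -0.48 to 0.41 for Ccnb3 in the interaction, -0.52 to 0.73 for Ccne1 at PD, -0.0059 to 1.25 for Ccne1 in the interaction, and -0.064 to 0.041 for Cdk2 from LZ to PD in WT. The library left alone in its group was assumed to vary like the others.

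With the replicate number as a replicate block, genes called were 9085, 7128, 16, 8298 and 4355, and of the 10 genes 8, 8, 0, 5 and 4, where Cdk2 at PD was not called (adjusted p = 0.0540 in limma). Departures from the group mean, compared over libraries with equal numbers, correlated between -0.0651 and 0.194 across pairs of groups, and the libraries are only known to share a number.

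With 2 libraries per group, p-values rest on the spread between libraries. The scaling decides the direction of Ccnb1, Ccnb3 and Ccne1 at PD. Marker sums of Leydig cells, spermatids and spermatogonia were higher in KO PD. Sorting, cell makeup and genotype cannot be told apart, and the cause of the differences at PD was not tested.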

Other observations

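For 4 of the genes, the 3 genes with the nearest pattern over the 8 libraries were found by the Euclidean distance between log2(FPKM + 1) profiles, each centred on its own mean. Nearest to Ccna1 were Ttc29 (0.50), Ube2u (0.55) and Prss21 (0.64). Ttc29 read 125 and 129 FPKM in WT PD and 70.0 and 22.7 in KO PD. Nearest to Ccna2 were Mrps35 (0.30), Gabpb1 (0.34) and Tanc2 (0.37), and Mrps35 read 10.1 and 10.7 FPKM in WT PD and 31.8 and 37.9 in KO PD. Nearest to Ccnb3 were Rad51ap2 (0.68), Pet2 (0.84) and Nrip3 (0.84). Nearest to Cdk1 were Pcna (0.43), Nusap1 (0.55) and Ipp (0.58), and Nusap1 read 63.2 and 54.2 FPKM in KO LZ and 24.2 and 13.0 in KO PD.

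The ratio of Cdk1 to Cdk2 was 0.718 and 0.708 for WT LZ, 1.32 and 1.35 for KO LZ, 0.796 and 0.726 for WT PD, then 0.651 and 0.352 for KO PD. The KO LZ libraries were thus the ones in which Cdk1 exceeded Cdk2, and no test was made of this ratio. The ratio of Ccne1 to Ccne2 was 2.08 and 2.30 for WT LZ, 1.91 and 1.36 for KO LZ, 1.02 and 0.906 for WT PD, then 2.001 and 0.760 for KO PD.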
